A study of Mus musculus with 12 samples.

Results

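The genes *Dcx*, *Sox11*, *Igfbpl1*, *Neurod1*, *Eomes*, *Neurog2*, *Calb2*, *Draxin*, *Dpysl3* and *Sox4*, which are used as markers of neuroblasts and immature granule neurons of the adult hippocampus, were followed after cranial irradiation. They were taken by exact gene symbol, and all 10 were found among the 23183 genes listed in every library. New granule neurons of the dentate gyrus arise from radial glia-like stem cells through dividing intermediate progenitors, then neuroblasts, then immature neurons that extend axons and dendrites. Dividing progenitors of this niche are known for their sensitivity to radiation. The cortex has no such niche in the adult, and several of the 10 genes are also made by neurons that are not newborn.

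RNA was sequenced from the hippocampus and the cortex of male C57BL/6 mice, with 3 libraries for each of 4 groups, 12 in all. The mice were bought at 7 weeks of age and given 1 week to acclimatize. IR mice received a single dose of 10 Gy to the whole brain and Con mice were handled as a sham without dose, and tissue was taken 3 months later. The labels do not say that the 3 libraries of a group are 3 separate mice, so the p values measure the spread between these libraries only.

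Levels are FPKM, fragments per kilobase of transcript relative to the mapped fragments of the library. *Prox1*, a transcription factor of dentate granule cells, was at 14.4 to 21.1 FPKM in the hippocampus libraries and at 1.69 to 2.23 FPKM in the cortex libraries. *Cdkn1a*, a target of p53 after DNA damage, was at 2.00 to 2.27 FPKM in Con and 6.06 to 6.25 FPKM in IR hippocampus, and at 5.67 to 6.32 FPKM in Con and 12.7 to 16.8 FPKM in IR cortex. Both genes therefore followed the tissue and treatment labels. Con 1 of the hippocampus had the highest value of the 6 hippocampus libraries in 7 of the 10 genes, and its part in the results below was not tested beyond the values given without it. Choroid plexus genes, led by *Ttr*, stood apart in Con 2 (summed FPKM 1065) and IR 1 (1656) of the hippocampus, against 22.8 to 66.1 in its other libraries, and in IR 2 of the cortex (440.2), against 4.74 to 31.3. IR 1 of the hippocampus also had the highest sum of thalamus genes (28.5 FPKM, against 14.8 to 18.7).

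In Con hippocampus the 10 genes covered a wide range of levels. *Calb2* was highest at 27.0 ± 8.90 FPKM (SD, n = 3), followed by *Dpysl3* at 13.9 ± 1.76 FPKM and *Neurod1* at 13.6 ± 1.38 FPKM, and the libraries of the last pair overlapped. *Sox4* (7.16 ± 1.27 FPKM), *Sox11* (3.29 ± 0.346 FPKM) and *Dcx* (2.11 ± 0.431 FPKM) came next, each without overlap with its neighbours. *Neurog2* (0.903 ± 0.249 FPKM) and *Igfbpl1* (0.567 ± 0.335 FPKM) overlapped, as did *Draxin* (0.202 ± 0.0502 FPKM) and *Eomes* (0.155 ± 0.0823 FPKM) at the bottom of the order. A gene was tested in a tissue when 3 or more of its 6 libraries had 0.5 FPKM or above. *Eomes*, *Igfbpl1* and *Draxin* did not pass in the hippocampus, which left 7 of the 10 tested there, and *Neurog2* also did not pass in the cortex, which left 6.

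**Figure D1:**
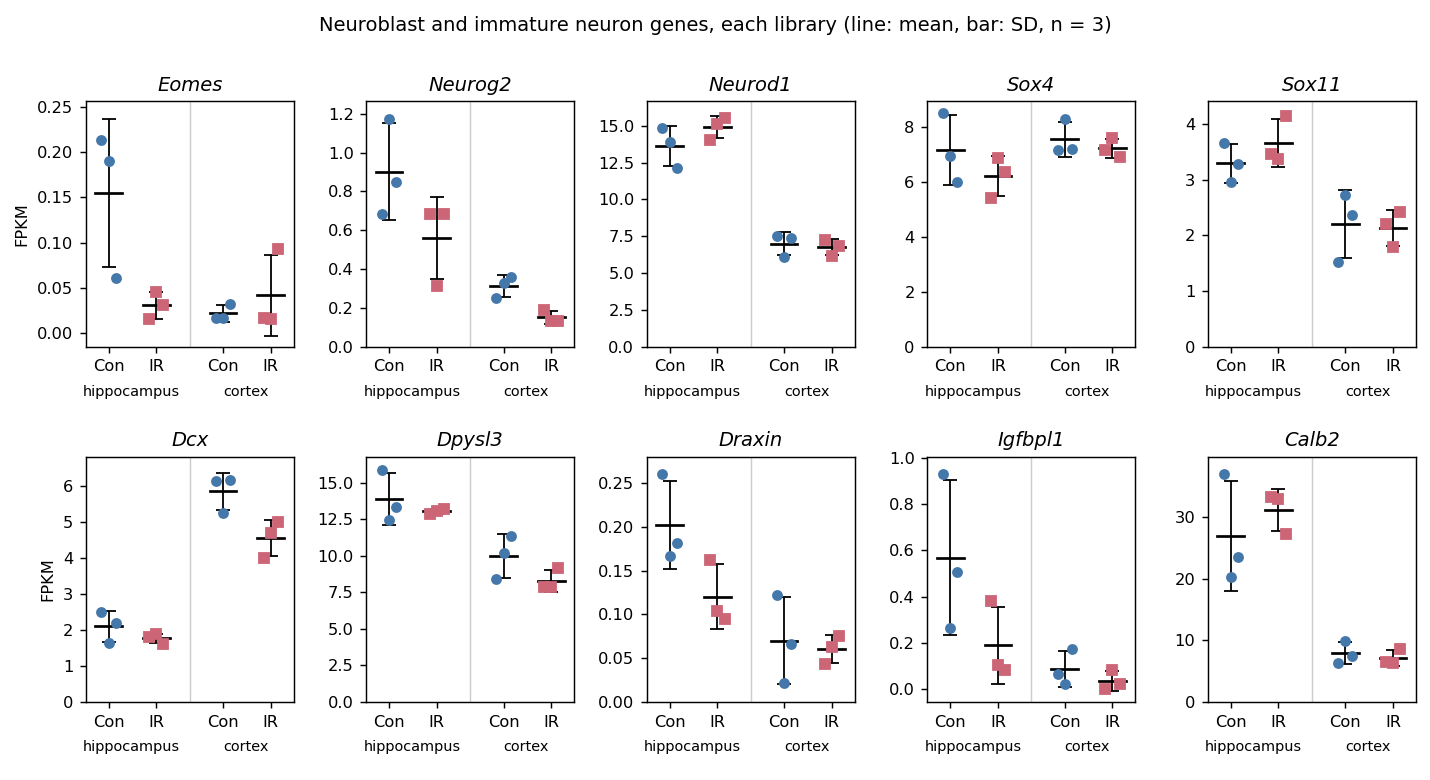
FPKM of each of the 10 genes in the 12 libraries, with Con as blue circles and IR as red squares, the mean as a line and the SD as a bar (n = 3). In the hippocampus every IR value of *Eomes*, *Neurog2* and *Draxin* lies below every Con value, whereas *Neurod1*, *Sox11*, *Dcx* and *Calb2* overlap.

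The question in the hippocampus was whether genes of newborn neurons were lower 3 months after 10 Gy. The 4 genes with the lowest levels had the largest ratios between Con and IR. *Eomes* was 5.14-fold higher in Con than in IR, *Igfbpl1* 2.99-fold, *Draxin* 1.68-fold and *Neurog2* 1.62-fold, as ratios of mean FPKM, whereas the means of *Dcx* and the 5 more abundant genes differed by less than the larger SD of the groups. None of the 7 tested genes met the criterion of a 1.5-fold change with an unadjusted p under 0.05, which 0.527% of all 14043 tested genes met. None had an unadjusted p under 0.05 in limma, against 13.9% of all tested genes (6.89% with lower IR values), and none an adjusted p under 0.05, against 0.0285%. In tissue RNA, fewer newborn cells and less RNA per cell cannot be told apart.

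All IR values were below all Con values in 3 of the 10 genes (*Eomes*, *Neurog2* and *Draxin*). The same held for 9.36% of the tested genes, for 7.98% of the 18999 genes above 0 in some library, and for 5.35% of 2787 genes below the test's limit with a mean of at least 0.05 FPKM. With 3 libraries against 3, an exact two-sided permutation test cannot give a p below 0.1, which is what each of these 3 genes had. After scaling by median-ratio size factors the 3 became 1 (*Eomes*), since *Neurog2* and *Draxin* then overlapped. The share of all genes on that scale is not given here. Without both libraries rich in choroid plexus genes the 3 became 6, as *Dcx*, *Dpysl3* and *Igfbpl1* joined them, against 16.1% of all genes above 0 in the remaining 2 libraries against 2. In these libraries *Neurod1* lay the other way, with both IR values above both Con values (a ratio of 1.14).

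*Eomes* (Tbr2) encodes a T-box transcription factor of intermediate progenitors. It lies on chromosome 9 at 118478212-118486132 of GRCm38, on the plus strand, and the antisense gene *Gm33460* overlaps its exons. *Eomes* was at 0.213, 0.190 and 0.0607 FPKM in Con 1 to 3 and at 0.0147, 0.0453 and 0.0303 FPKM in IR 1 to 3. Every Con library was above every IR library, although Con 3 was close to the highest IR value. Con averaged 0.155 ± 0.0823 FPKM and IR averaged 0.0301 ± 0.0153 FPKM (SD, n = 3). Leaving out any library kept the log2 ratio of IR to Con between -2.78 and -2.03. When genes below the limit were also tested, *Eomes* had an unadjusted p of 0.0240 and an adjusted p of 0.394 (limma). With a pseudocount of 0.1 as well, its log2 fold change was -0.92 with an unadjusted p of 0.0182 (limma).

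*Neurog2* encodes a proneural basic helix-loop-helix factor that is active in progenitors just before and with *Eomes* (chromosome 3, 127633135-127635631, plus strand). It was at 0.685, 1.17 and 0.848 FPKM in Con and at 0.681, 0.314 and 0.681 FPKM in IR. The groups were separated only by the narrow gap between Con 1 and the highest IR library. The log2 fold change on log2(FPKM + 1) was -0.29 (SE 0.15, 95% interval -0.62 to 0.05), with an adjusted p of 0.406 in limma. This scale understates the change of low genes, and with a pseudocount of 0.1 in place of 1 the value was -0.64. The unadjusted p of 0.0824 became 0.0468 without Con 1 and 0.277 without IR 2 (limma).

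*Neurod1*, a helix-loop-helix factor of late progenitors, neuroblasts and maturing granule neurons (chromosome 2, 79452521-79456751, minus strand), did not share the lower values. It was at 14.8, 13.9 and 12.1 FPKM in Con and at 14.1, 15.1 and 15.6 FPKM in IR. The groups overlapped and the IR mean was the higher one. Its log2 fold change was 0.13 (SE 0.08, 95% interval -0.07 to 0.32), with an adjusted p of 0.506 in limma. It was 0.19 without Con 1 and 0.050 without Con 3. Of the 50-base stretches in its transcripts, 5.71% are shared with *Cerkl*, whose exons overlap on the same strand, so reads there could have been counted for either gene. The antisense gene *Gm26755* also overlaps it.

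The levels of 4 genes were so low that the FPKM steps between libraries could be read back as whole fragments. Of 48 values of *Eomes*, *Neurog2*, *Draxin* and *Igfbpl1*, 44 lay within 0.15 of a whole number after the step of each gene had been adjusted by a factor of its own (0.915 to 1.02), so that part of this closeness is built in. The values further from a whole number were all in hippocampus Con 1 (*Igfbpl1* and *Draxin*) and Con 2 (*Eomes* and *Draxin*). Their distance was at most 0.443. The depth read from other low genes was about 15900000 to 17900000 fragments per library. The fragment numbers are therefore estimates, and their intervals cover counting error only. *Eomes* rested on an estimated 13, 12 and 4 fragments in Con and 1, 3 and 2 in IR hippocampus. The sums were 29 (exact Poisson 95% interval 19.4 to 41.6) and 6 (2.20 to 13.1). Relative to depth, the ratio of IR to Con was 0.193 with an exact interval of 0.0655 to 0.473, which leaves out the spread between libraries.

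*Igfbpl1*, a secreted protein related to the insulin-like growth factor binding proteins (chromosome 4, 45809468-45826923, minus strand), was at 0.927, 0.266 and 0.507 FPKM in Con and at 0.382, 0.104 and 0.0833 FPKM in IR. IR 1 was above Con 2, so the groups overlapped, and the exact permutation p was 0.2 (two-sided). Con averaged 0.567 ± 0.335 FPKM and IR averaged 0.190 ± 0.167 FPKM (SD, n = 3). The estimated fragments were 41, 12 and 24 in Con and 19, 5 and 4 in IR, with sums of 77 (60.8 to 96.2) and 28 (18.6 to 40.5). Single libraries weighed heavily on the size of the difference. The log2 ratio of means was -1.58 with all libraries, -1.03 without Con 1 and -2.60 without IR 1. Without Con 2 and IR 1 together the ratio of IR to Con was 0.131 in place of 0.335. With genes below the limit tested and a pseudocount of 0.1, its log2 fold change was -1.22 with an unadjusted p of 0.0407 (limma).

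*Draxin* encodes a secreted repellent of growing axons (chromosome 4, 148098437-148130698, minus strand). It was at 0.260, 0.166 and 0.181 FPKM in Con and at 0.163, 0.104 and 0.0942 FPKM in IR. The groups did not overlap, but IR 1 lay just under Con 2. Con averaged 0.202 ± 0.0502 FPKM and IR averaged 0.120 ± 0.0370 FPKM (SD, n = 3). The sums of estimated fragments were 55 (41.4 to 71.6) and 35 (24.4 to 48.7), and for *Neurog2* they were 98 (79.6 to 119.4) and 65 (50.2 to 82.8). The ratio of IR to Con relative to depth was 0.594 for *Draxin* (exact interval 0.377 to 0.923) and 0.619 for *Neurog2* (0.445 to 0.855).

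**Figure D2:**
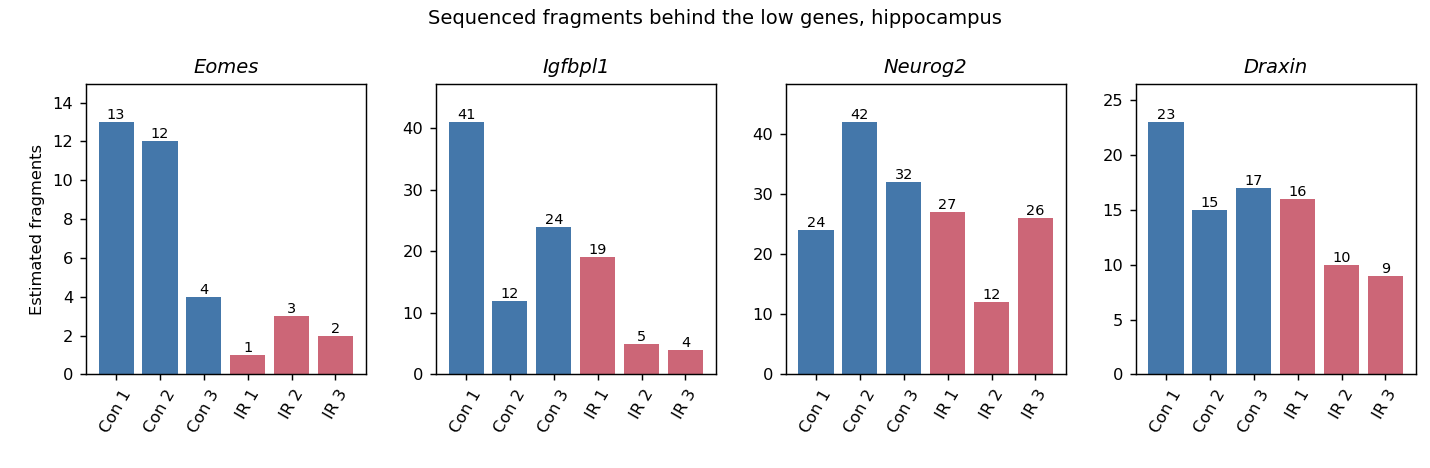
Estimated number of sequenced fragments behind the 4 lowest genes in the 6 hippocampus libraries, with Con in blue and IR in red (axes start at 0). *Eomes* rests on 1 to 3 fragments in each IR library and on 4 to 13 in each Con library.

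*Sox4* and *Sox11* are SoxC transcription factors, which act together in early neuronal differentiation. *Sox4* (chromosome 13, 28948919-28953713, minus strand, with the antisense gene *Gm26735* over its exons) was at 8.52, 6.95 and 6.01 FPKM in Con and at 5.41, 6.86 and 6.35 FPKM in IR. *Sox11* (chromosome 12, 27334264-27342574, minus strand) was at 3.65, 2.96 and 3.28 FPKM in Con and at 3.46, 3.36 and 4.14 FPKM in IR. Both overlapped between groups, and their means lay in opposite directions. The log2 fold change was -0.17 (SE 0.13, 95% interval -0.46 to 0.12, adjusted p = 0.540 in limma) for *Sox4*. It was -0.057 without Con 1 (unadjusted p = 0.628 in limma) and -0.28 without Con 3 (unadjusted p = 0.0485 in limma), a setting in which 26% of all tested genes had an unadjusted p under 0.05. For *Sox11* it was 0.12 (SE 0.10, 95% interval -0.12 to 0.35, adjusted p = 0.607 in limma), and 0.17 without Con 1 and 0.042 without IR 3. No stretch of 50 bases is common to both transcripts, so reads of one could not be placed on the other over that length.

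*Dcx* encodes doublecortin, the microtubule-binding protein of migrating neuroblasts that is the usual stain for newborn neurons (chromosome X, 143855842-143933311, minus strand). It was at 2.5, 1.65 and 2.19 FPKM in Con and at 1.80, 1.88 and 1.62 FPKM in IR hippocampus. Con 2 lay within the IR values, and the other Con libraries were above all of them. The log2 fold change was -0.16 (SE 0.12, 95% interval -0.44 to 0.12), with an adjusted p of 0.552 in limma. It was -0.27 without Con 2 (unadjusted p = 0.0364 in limma) and -0.071 without Con 1 (unadjusted p = 0.576 in limma).

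*Dpysl3* (chromosome 18, 43320984-43438286, minus strand) encodes a cytoskeletal phosphoprotein of growing axons, also known as CRMP4. It was at 15.9, 12.5 and 13.4 FPKM in Con and at 12.9, 13.1 and 13.2 FPKM in IR. The IR libraries were nearly equal and lay inside the Con range. Its log2 fold change was -0.08 (SE 0.09, 95% interval -0.28 to 0.12, adjusted p = 0.696 in limma), and it was -0.15 without Con 2 and 0.014 without Con 1.

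*Calb2* encodes calretinin, a calcium-binding protein that immature granule neurons make for a short time and that interneurons and mossy cells keep (chromosome 8, 110137502-110168210, minus strand). It was at 37.1, 20.3 and 23.6 FPKM in Con and at 33.3, 32.9 and 27.3 FPKM in IR. Con 1 was above every IR library and the other Con libraries were below every one. The log2 fold change was 0.24 (SE 0.20, 95% interval -0.22 to 0.70, adjusted p = 0.591 in limma). The value depended on single libraries. It was 0.49 without Con 1 (unadjusted p = 0.00251 in limma), 0.066 without Con 2 (unadjusted p = 0.734 in limma) and 0.017 without both libraries rich in choroid plexus genes (unadjusted p = 0.938 in limma).

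**Figure D3:**
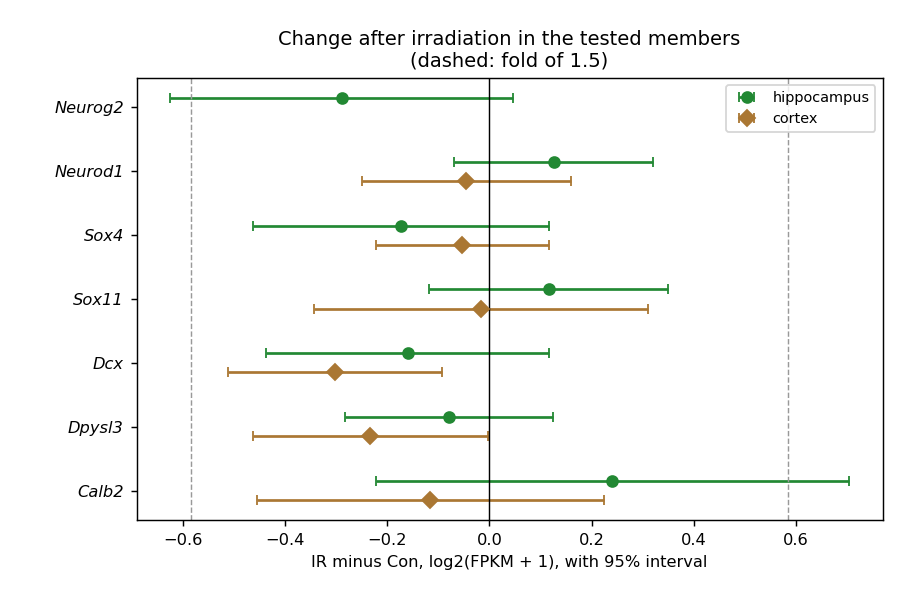
Difference of IR from Con on log2(FPKM + 1) for the genes tested in the hippocampus (green circles, 7 genes) and the cortex (brown diamonds, 6 genes), with 95% intervals from limma and dashed lines at a 1.5-fold change. The cortex intervals of *Dcx* and *Dpysl3* are the ones that leave out 0.

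The same comparison in the cortex showed whether any difference was seen outside the neurogenic niche. *Dcx* was lower in IR cortex, by a log2 difference smaller than the 1.5-fold criterion. It was at 6.14, 5.25 and 6.18 FPKM in Con and at 4.01, 4.70 and 5.0 FPKM in IR, without overlap. Con averaged 5.86 ± 0.526 FPKM and IR averaged 4.57 ± 0.508 FPKM (SD, n = 3), a ratio of 0.780. Its log2 fold change was -0.30 (SE 0.09, 95% interval -0.51 to -0.09), with an unadjusted p of 0.00935 and an adjusted p of 0.202 in limma. The unadjusted p lay between 0.00394 and 0.0421 when each library was left out in turn (limma).

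*Dpysl3* was also lower in IR cortex on average but overlapped, at 8.39, 10.2 and 11.3 FPKM in Con and 7.85, 7.89 and 9.16 FPKM in IR. Its log2 fold change was -0.23 (SE 0.10), with an unadjusted p of 0.0479 and an adjusted p of 0.346 in limma. The unadjusted p was above 0.05 without Con 2, Con 3, IR 1 or IR 2, and at most 0.188 (limma). These were the 2 of 6 tested genes with an unadjusted p under 0.05, against 14.1% of all 14065 genes tested in the cortex and 5.94% for genes lower in IR. None of the 6 met the 1.5-fold criterion, against 0.483% of all tested genes, and none had an adjusted p under 0.05 in limma, against 0.725%.

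*Neurog2* was below the limit for the test in the cortex. It was at 0.248, 0.330 and 0.357 FPKM in Con and at 0.191, 0.131 and 0.134 FPKM in IR. All Con libraries were above all IR libraries. Con averaged 0.312 ± 0.0567 FPKM and IR averaged 0.152 ± 0.0337 FPKM (SD, n = 3), a 2.05-fold ratio that rests on sums of an estimated 34 (23.5 to 47.5) and 17 (9.90 to 27.2) fragments. Relative to depth, the ratio of IR to Con was 0.486 (exact interval 0.255 to 0.895). When genes below the limit were also tested, it had an unadjusted p of 0.00673 and an adjusted p of 0.252 (limma). With *Dcx*, it made 2 of the 10 genes without overlap and with lower IR values, against 9.09% of the tested genes, 8.59% of all genes above 0 in some cortex library and 9.31% of genes below the limit with a mean of at least 0.05 FPKM.

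*Eomes* was near the limit of detection in the cortex, with sums of an estimated 4 fragments in Con and 8 in IR. It was at 0.0160, 0.0160 and 0.0319 FPKM in Con and at 0.0158, 0.0152 and 0.0932 FPKM in IR, where IR 3 set the higher mean. Without IR 3 the log2 ratio of IR to Con was -0.46 in place of 0.96. *Igfbpl1* (sums of 12 and 5 estimated fragments) and *Draxin* (19 and 17) overlapped between Con and IR. The remaining genes overlapped as well. Their log2 fold changes in the cortex were -0.04 for *Neurod1*, -0.05 for *Sox4*, -0.02 for *Sox11* and -0.12 for *Calb2*, with adjusted p values of 0.784 to 0.972 in limma.

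Over the tested genes of the group, the median log2 fold change was -0.08 in the hippocampus and -0.08 in the cortex, against -0.01 and 0.002 over all tested genes. In the hippocampus 4 of the 7 had a negative log2 fold change, against 52.7% of all tested genes, and in the cortex 6 of the 6, against 49.5%. Whether irradiation acted differently in the regions was tested by the interaction over all 12 libraries. None of the 7 genes tested had an unadjusted p under 0.05 (10.3% of 14577 genes did) or an adjusted p under 0.05 in limma (0.0823%). For *Dcx* the hippocampus minus cortex difference of the log2 fold changes was 0.14 (SE 0.16, adjusted p = 0.772 in limma), and for *Calb2* it was 0.36 (SE 0.29, adjusted p = 0.688 in limma). With single libraries left out these values ran from 0.030 to 0.23 for *Dcx* and from 0.18 to 0.60 for *Calb2*. *Eomes*, *Igfbpl1* and *Draxin* did not pass the limit for this test. Without that limit the interaction of *Eomes* was -0.19 with an unadjusted p of 0.0172 (limma), and the values of *Igfbpl1* (-0.31, unadjusted p = 0.125) and *Draxin* (-0.09, unadjusted p = 0.170) had a p above 0.05. Neither with nor without the limit did any of these genes have an adjusted p under 0.05 (limma).

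The regions themselves differed in several of these genes in Con mice. *Calb2* was 3.41-fold higher in the hippocampus (log2 difference 1.62, adjusted p = 5.82e-05 in limma) and *Neurod1* 1.95-fold higher (0.87, adjusted p = 4.92e-06 in limma). *Dcx* ran the other way and was 2.78-fold higher in the cortex (log2 difference -1.15, adjusted p = 2.11e-06 in limma). These 3 genes met the criterion of a 1.5-fold difference with an adjusted p under 0.05, as did 13.5% of all 14577 genes (6.76% higher in the hippocampus and 6.79% higher in the cortex). The libraries of the regions may come from different processing runs, and region and run cannot be told apart. The labels do not say whether cortex and hippocampus libraries of the same number share a mouse, and the fits across regions treated them as separate.

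*Neurog2* (log2 difference 0.53, adjusted p = 0.00296 in limma), *Dpysl3* (0.44, adjusted p = 0.00358 in limma) and *Sox11* (0.44, adjusted p = 0.0183 in limma) were higher in the hippocampus with differences on log2(FPKM + 1) under that fold. As a ratio of mean FPKM *Neurog2* was 2.90-fold higher, and with a pseudocount of 0.1 its log2 difference was 1.27. With single libraries left out the *Sox11* difference ran from 0.28 to 0.56, with adjusted p values of 0.00733 to 0.0850 in limma. *Sox4* overlapped between regions (-0.08, adjusted p = 0.602 in limma). Of the genes not tested, *Eomes* was 7.26-fold, *Igfbpl1* 6.47-fold and *Draxin* 2.89-fold higher in the hippocampus as ratios of mean FPKM, each without overlap between the Con libraries.

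The promoters of *Eomes* and *Sox11* are shown as examples of a gene that was lower in every IR library and of one that overlapped. RefSeq promoter entries (GRCm38.p6) were found for 7 of the 10 genes, and *Igfbpl1*, *Calb2* and *Dpysl3* had none. Proneural factors such as *Neurog2* and *Neurod1* bind E-boxes, which have the letters CANNTG and read the same way on both strands. The windows are chr9:118477939-118478185 on the plus strand for *Eomes* and chr12:27342719-27342968 on the minus strand for *Sox11*. Both end at the base before the start that RefSeq gives (118478186 for *Eomes* and 27342718 for *Sox11*), which lies upstream of the GENCODE limits given above, and are written 5′ to 3′, with E-boxes in capitals.
Eomes: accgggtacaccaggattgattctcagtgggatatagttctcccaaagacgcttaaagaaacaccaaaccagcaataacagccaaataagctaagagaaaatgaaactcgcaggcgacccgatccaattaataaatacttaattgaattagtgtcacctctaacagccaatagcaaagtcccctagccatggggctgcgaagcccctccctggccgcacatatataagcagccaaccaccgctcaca
Sox11: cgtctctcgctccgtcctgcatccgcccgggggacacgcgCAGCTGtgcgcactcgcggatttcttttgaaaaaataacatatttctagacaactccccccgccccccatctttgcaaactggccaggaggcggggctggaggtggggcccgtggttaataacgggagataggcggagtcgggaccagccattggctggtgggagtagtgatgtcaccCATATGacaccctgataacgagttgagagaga
The *Sox11* window holds CAGCTG beginning 210 bases before the start and CATATG beginning 32 bases before it, and the *Eomes* window of 247 bases holds no match. The windows of *Neurod1*, *Draxin* and *Sox4* also hold 1 match each, and those of *Neurog2* and *Dcx* hold none. Of 32851 promoter windows of 250 bases in the table, 66.2% hold at least 1 match, and a match describes these letters only.

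Other genes of the same lineage were read as lists. Of 24 other genes of neuroblasts and immature neurons, 23 were tested in the hippocampus, with 16 negative and 7 positive log2 fold changes and a median of -0.05. Of all tested genes there, 52.7% were negative. *Marcksl1*, an actin-binding protein of young neurons, was at 54.9, 55.4 and 53.2 FPKM in Con and 38.2, 49.7 and 41.5 FPKM in IR, without overlap (log2 fold change -0.34, unadjusted p = 0.00734, adjusted p = 0.259 in limma). *Nrep* was lower as well, with overlap (log2 fold change -0.33, unadjusted p = 0.0187 in limma), and *Fxyd7*, a regulator of the sodium pump, was higher (0.24, unadjusted p = 0.0412 in limma). These were the 3 of 23 with an unadjusted p under 0.05, a share near the 13.9% of all tested genes, and none met the 1.5-fold criterion. In the cortex 22 were tested, again with 16 negative log2 fold changes (49.5% of all tested genes were negative) and a median of -0.07. The 2 of 22 with an unadjusted p under 0.05, against 14.1% of all tested genes, were both lower in IR, namely *Nrep* (-0.27, unadjusted p = 0.00727) and *Crmp1* (-0.14, unadjusted p = 0.0495) in limma.

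Upstream of the neuroblasts, 7 of 14 genes of cycling cells were tested in the hippocampus, with 5 negative and 2 positive log2 fold changes and a median of -0.21. Of the 7, 1 met the 1.5-fold criterion, against 0.527% of all tested genes, and 4 had an unadjusted p under 0.05, against 13.9%. *Hmgb2*, a chromatin protein abundant in dividing cells, met the 1.5-fold criterion and fell. It was at 2.23, 2.07 and 1.54 FPKM in Con and at 0.796, 1.20 and 0.803 FPKM in IR, without overlap. Its log2 fold change was -0.61 (SE 0.13, unadjusted p = 0.00172, adjusted p = 0.225 in limma). *Hmgb2* was also lower in the cortex (-0.33, unadjusted p = 0.0198 in limma), under the 1.5-fold criterion and with overlap. *Pcna* (-0.23, unadjusted p = 0.0220) and *Mcm2* (-0.28, unadjusted p = 0.0402), which act in DNA replication, were lower, and the cyclin *Ccnd2* was higher (0.29, unadjusted p = 0.00611 in limma). Of 12 genes of radial glia-like stem cells, 6 had a negative log2 fold change and 6 a positive one (median -0.04), where 52.7% of all tested genes were negative. The 2 of 12 with an unadjusted p under 0.05, a share near the 13.9% of all tested genes, were both lower in IR. They were *Id4* (-0.24, unadjusted p = 0.0109) and *Hopx* (-0.26, unadjusted p = 0.0161 in limma), both also made by astrocytes.

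Downstream, the 10 genes of mature dentate granule cells had 9 positive log2 fold changes and 1 negative in the hippocampus, where 52.7% of all tested genes were negative, with a median of 0.26. *Prox1* (0.30), *Lct* (0.39), *Maml2* (0.37) and *Plk5* (0.33) had unadjusted p values of 0.00465 to 0.0368 in limma, without overlap between Con and IR, which made 4 of 10 against 13.9% of all tested genes, and none met the 1.5-fold criterion. The summed FPKM of the list was 162.7 to 199.3 in Con and 188.9 to 195.6 in IR hippocampus, so the sums overlapped. Con 1 was the lowest hippocampus library in *Prox1*, *Lct*, *Maml2* and *Plk5*, and its part in their values was not tested. In the cortex the 7 tested had a median of 0.01 and none had an unadjusted p under 0.05 in limma.

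**Figure D4:**
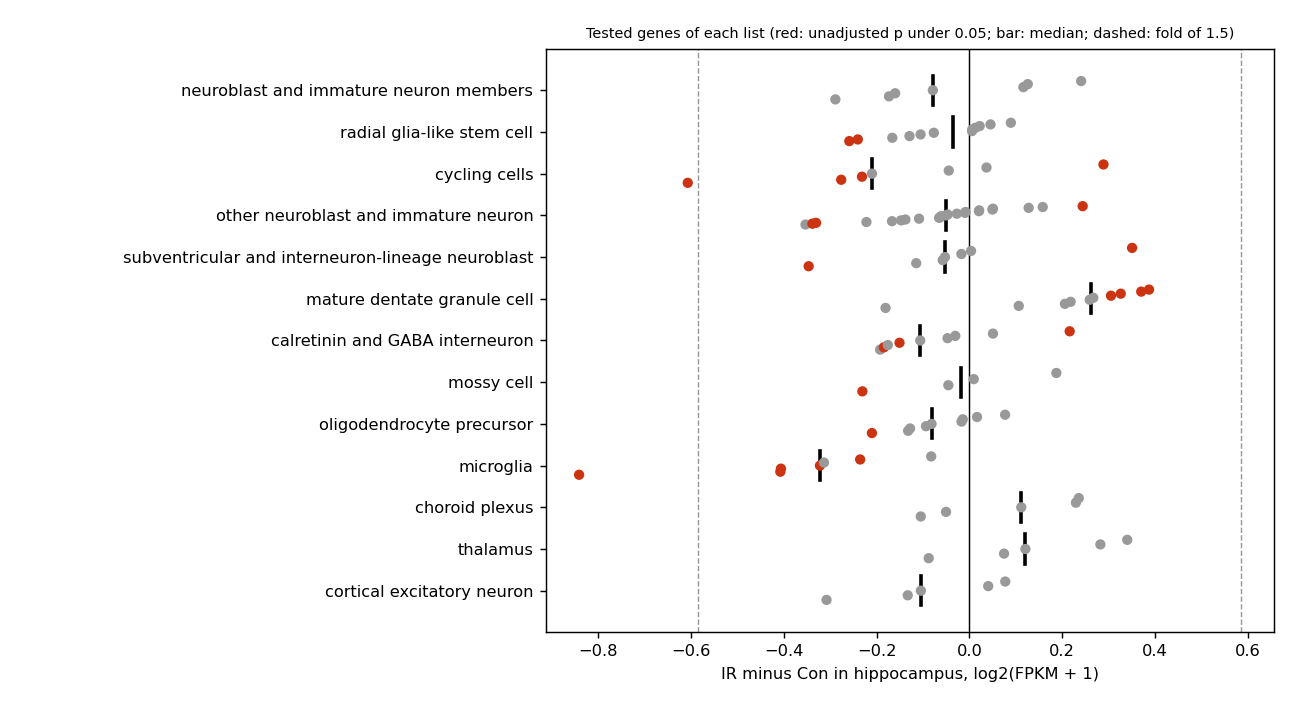
Difference of IR from Con in the hippocampus on log2(FPKM + 1) for the tested genes of each list, one point per gene (red: unadjusted p under 0.05 in limma), with the list's median as a bar and dashed lines at a 1.5-fold change. The medians of the mature granule cell list (0.26) and of the cycling cell list (-0.21) lie on opposite sides of 0, and the neuroblast members sit near it (-0.08).

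Markers of other cells that make some of the 10 genes were read beside them. Of 9 genes of GABA interneurons, which share *Calb2*, 7 had a negative log2 fold change in the hippocampus (median -0.11), where 52.7% of all tested genes did. *Htr3a* was higher (0.22), and *Reln* (-0.18) and *Slc32a1* (-0.15) were lower, with unadjusted p values of 0.0151 to 0.0441 in limma. Of the 9, 2 were lower and 1 higher with an unadjusted p under 0.05, against 13.9% of all tested genes. Their adjusted p values were 0.292 to 0.350 in limma. The summed FPKM of this list was 379.1 to 530.8 in Con and 427.0 to 457.8 in IR. Of 4 mossy cell genes, 2 had a negative and 2 a positive log2 fold change (median -0.018). *Ociad2*, which makes up most of their summed FPKM, was lower (-0.23, unadjusted p = 0.0296, adjusted p = 0.327 in limma), the 1 of 4 with an unadjusted p under 0.05.

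Of 9 genes of oligodendrocyte precursors, which make *Sox4* and *Sox11* at some stages, 7 had a negative log2 fold change in the hippocampus, against 52.7% of all tested genes. *Vcan* was lower (-0.21, unadjusted p = 0.0474 in limma). It was the 1 of 9 under 0.05, against 13.9% of all tested genes. The list summed to 101.3 to 106.3 FPKM in Con and 94.1 to 101.6 FPKM in IR. None of the choroid plexus, thalamus or cortical excitatory neuron genes tested in the hippocampus had an unadjusted p under 0.05 in limma. Microglia genes, 7 in all, summed to 128.7 to 151.9 FPKM in Con and 97.8 to 111.9 FPKM in IR hippocampus, and to 131.7 to 141.7 FPKM in Con and 97.8 to 132.5 FPKM in IR cortex. The part of these cell types in the results for the 10 genes was not tested.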

How the data were processed

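The authors isolated RNA from hippocampus and cortex, made directional libraries read from both ends over 100 bases, trimmed the reads, aligned them with TopHat, used Cufflinks to estimate FPKM, and normalized these geometrically. The submitters' processing notes name TopHat and mm10. Per the labels RNA was total RNA taken with Trizol, whereas the study's methods name a column kit and poly(A) selection. The deposited FPKM are 1 value per gene symbol and summed to 359773 to 393447 per library. No counts were used, and fragments of 4 low genes were estimated from FPKM steps (101 to 126 single-transcript genes of at least 1500 bases at 1 fragment gave each library's depth), a step chosen after values were seen, as was the 0.05 FPKM background.

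Genes with at least 0.5 FPKM in 3 libraries were transformed to log2(FPKM + 1) and fitted per tissue in limma 3.58.1 (R 4.3.3) with trend and robust prior. p values were adjusted over all tested genes by Benjamini-Hochberg. The region comparison and the interaction used all 12 libraries. Steps were tested on simulated data. Exact permutation tests were two-sided. Positions are from GENCODE M21 on GRCm38. Figures were drawn with matplotlib 3.10.9.

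The 10 genes and the 12 lists of 113 genes were chosen with earlier results of these data known. Named from each list are at most the 4 tested genes with the smallest unadjusted p under 0.05, with *Prox1* and *Cdkn1a* as checks. Alternatives were no filter, a filter of 1 FPKM in all libraries of a fit, the pseudocount 0.1, quantile normalization, median-ratio size factors, no trend or robust prior, the replicate number as a block, a single fit of 12 libraries, and leaving out each library. Pairs of these changes, and leaving out both hippocampus libraries rich in choroid plexus genes, were added after seeing the data.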

Additional observations from a re-analysis of the deposited data

How the results depend on the processing

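No alternative gave any of the 10 genes an adjusted p under 0.05 for IR against Con in limma in either tissue. Genes past the 1.5-fold criterion stayed at 0 under each single change. With 2 changes together, chosen after seeing the data, no filter and the ratio of group means gave 1 in the hippocampus (*Eomes*) and 1 in the cortex (*Neurog2*), and no filter with a pseudocount of 0.1 gave 2 (*Eomes* and *Igfbpl1*) and 1 (*Neurog2*), against 2.46% to 2.76% of all genes. The count of genes with an unadjusted p under 0.05 in the hippocampus, 0 in the report, became 1 without a filter (*Eomes*, 11.3% of all genes tested), 2 with a pseudocount of 0.1 besides (*Eomes* and *Igfbpl1*, 11.5%), 1 with all 12 libraries in a single fit (*Neurog2*, 18.6%), and 0 to 2 when libraries were left out (*Calb2* and *Neurog2* without Con 1, where 9.13% of all genes had it, *Dcx* without Con 2, 9.3%, *Sox4* without Con 3, 26%). In the cortex the count of 2, against 14.1% of all tested genes in the reported fit, became 1 without trend or robust prior, and 1 to 2 with libraries left out. Without a filter it stayed at 2 with *Neurog2* in place of *Dpysl3*, against 11.8% of all genes tested. For the interaction the count of 0 became 1 without a filter (*Eomes*) and 0 to 1 with libraries left out (*Calb2* without hippocampus Con 1, 0.60, unadjusted p = 0.0185 in limma). In the reported fit 10.3% of all tested genes had an interaction with an unadjusted p under 0.05. No alternative gave any of the 10 genes an adjusted p under 0.05 for it (limma). The 3 genes that differed between regions became 5 with a pseudocount of 0.1 and 3 to 4 with libraries left out. The genes without overlap and with IR lower were 1 in the hippocampus after median-ratio size factors, in place of 3 (*Eomes* remained), 6 without both choroid plexus-rich libraries, also chosen after seeing the data, and 3 to 6 with single libraries left out. In the cortex they were 2 to 4. Groups separate more easily by design when a library is left out. No share of all genes is given for the rescaled counts or for those with single libraries left out. These counts are therefore no result about the 10 genes. The log2 value changed sign for *Sox11* in the cortex with quantile normalization (0.00051) and for the *Neurog2* interaction with a pseudocount of 0.1 (0.070). With libraries left out, signs turned within -0.15 to 0.014 for *Dpysl3* in the hippocampus, in the cortex within -0.13 to 0.010 for *Neurod1*, -0.24 to 0.041 for *Calb2*, -0.18 to 0.10 for *Sox11* and -0.086 to 0.0080 for *Sox4*, within -0.19 to 0.016 for the *Neurog2* interaction and within -0.19 to 0.028 for *Sox4* between regions. The log2 ratios of group means in the cortex ran from -0.63 to 0.46 for *Draxin* and from -0.46 to 1.37 for *Eomes*. The cause was not tested for these changes, beyond the fewer libraries. The replicate number as a block gave 0 genes with an unadjusted p under 0.05 in the hippocampus and 2 in the cortex, 0 for the interaction and 3 between regions, and it changed no call. Same-numbered Con and IR libraries correlated at -0.39 to -0.09 in the hippocampus and at -0.11 to 0.11 in the cortex, and same-numbered cortex and hippocampus libraries at -0.13 to 0.15, so the correlations do not show that the numbers pair the libraries. Depth limits *Eomes* most, with an estimated 1 to 3 fragments in each IR library of the hippocampus.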

Other observations

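All 7 microglia genes had a negative log2 fold change in the hippocampus (median -0.32, against -0.01 over all tested genes), and 5 of them an unadjusted p under 0.05 (limma), against 13.9% of all tested genes. *Csf1r*, the receptor that microglia need to survive, fell there (-0.84, adjusted p = 0.0126 in limma). In the cortex all 7 were negative as well (median -0.21), where 49.5% of all tested genes were, 3 had an unadjusted p under 0.05 (limma), against 14.1%, and *Csf1r* fell (-0.80, unadjusted p = 0.0233 in limma), although IR 2 at 18.0 FPKM stood near Con.

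*Dlx6* and *Dlx6os1*, neighbours that are read from opposite strands, differed in opposite directions in the hippocampus. *Dlx6* was at 2.08, 2.29 and 2.73 FPKM in Con and 1.76, 1.81 and 1.36 FPKM in IR (-0.35, unadjusted p = 0.0158 in limma). *Dlx6os1* was at 3.09, 3.10 and 3.24 FPKM in Con and 4.42, 4.29 and 4.14 FPKM in IR (0.35, unadjusted p = 0.00149, adjusted p = 0.225 in limma). *Top2a* and *Mki67*, chosen after their values were seen, are genes of dividing cells under the limit for the test. *Top2a* was at 0.405, 0.188 and 0.297 FPKM in Con and 0.122, 0.135 and 0.136 FPKM in IR hippocampus, without overlap, whereas *Mki67* overlapped at 0.167 to 0.221 FPKM in Con and 0.159 to 0.190 FPKM in IR.

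In the cortex, the lists of oligodendrocyte precursors (4 negative and 5 positive log2 fold changes) and radial glia-like stem cells (8 negative and 4 positive) had members on both sides of 0, where 49.5% of all tested genes were negative, and 2 of 9 and 2 of 12 had an unadjusted p under 0.05 (limma), against 14.1%. *Sox2* (0.21, unadjusted p = 0.0105), *Gpr17* (0.28, unadjusted p = 0.00822) and *Olig2* (0.23, unadjusted p = 0.0126) were higher in IR without overlap, *Mcm6* (-0.26, unadjusted p = 0.0109) and *Reln* (-0.30, unadjusted p = 0.00553) were lower without overlap (limma), and none met the 1.5-fold criterion. *Mcm6* was among 8 cycling cell genes tested there (4 negative and 4 positive, 2 with an unadjusted p under 0.05 in limma). *Reln* was among 9 interneuron genes (4 negative and 5 positive, 1 under 0.05). The adjusted p values were 0.211 for *Mcm6* and 0.171 for *Reln* in limma. IR was lower without overlap in 9.09% of all tested genes.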
